A study of Mus musculus with 8 samples.

Results

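The Bach2 locus of mouse chromosome 4 was followed in the contact maps of B cells between 3 and 33 h after activation. Bach2 (ENSMUSG00000040270.16) was 1 of 20807 autosomal protein-coding genes of the annotation (GENCODE vM21, GRCm38). It lies on the plus strand at chr4:32238804-32586108 and spans 347 kb. The contacts were counted in bins of 50 kb whose edges follow MboI restriction sites, so that the gene filled 8 bins, and 40 bins on each side, 2 Mb, were taken as its flanks. These 88 bins, out of 47332 autosomal bins kept, are called the window below. Positions are given as the distance of a bin's centre from the annotated start of Bach2, with negative values before it. The bin that holds the start (chr4:32199932-32250019) has its centre at -14 kb and is called the start bin.

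In situ HiC joins and sequences pieces of DNA that lay close together in fixed nuclei, so each read pair counts 1 contact between 2 restriction fragments. Splenic B cells of young adult male C57BL/6 mice were isolated untouched, labelled with the division dye CellTrace Violet and stimulated with lipopolysaccharide, and cells that carried the activation marker CD69 and had not divided were sorted at 3 h, at 10 h and at 33 h, the last being the imminent division group. The pre-S group was also taken at 33 h, but from C57BL/6 FUCCI mice (the methods give the background of the animals as C57BL/6 Pep3b), whose fluorescent cell cycle reporters allowed cells with high mKO2 and no mAG, which are in G1, to be sorted. Each of the 4 groups had 2 libraries, so 8 libraries in all, described by the study as biological duplicates. In every comparison with the pre-S group, the FUCCI transgenes and the G1 gate cannot be told apart. Libraries held between 88703088 and 218945191 read pairs, of which 70.9% to 75.1% joined fragments of the same chromosome. The second imminent division library stood apart by its sex chromosomes. The X chromosome took 3.74% of its read ends against 2.39% to 2.84% in the other libraries, and the Y chromosome 0.0490% against 0.0804% to 0.123%. Contact counts give no transcript level, so cell type markers could not be examined here.

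Bach2 encodes a transcriptional repressor of the BTB and CNC basic leucine zipper family that binds DNA together with a small Maf protein. In B cells it is known to repress Prdm1, the gene of the plasma cell regulator Blimp-1, and so to delay plasma cell differentiation, and it is needed for class switching of antibody genes. Chromatin is folded into topologically associating domains (TADs), within which contacts are frequent, and into A compartments, which hold most active genes, and B compartments, which hold most inactive chromatin. CTCF, bound at TAD boundaries, is known to halt the cohesin complex that forms loops.

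For Bach2, 2 starts that fall in different bins were followed. They are the 5′ start of the GENCODE gene, in the start bin, and an internal start from RefSeq, 178.6 kb downstream in the bin at 186 kb. Further annotated starts were not counted. The 250 bases before each start are shown because the contact between the bins of both starts is given below. Every CG dinucleotide is in capitals (plus strand, GRCm38.p6).
5′ start, chr4:32238554-32238803: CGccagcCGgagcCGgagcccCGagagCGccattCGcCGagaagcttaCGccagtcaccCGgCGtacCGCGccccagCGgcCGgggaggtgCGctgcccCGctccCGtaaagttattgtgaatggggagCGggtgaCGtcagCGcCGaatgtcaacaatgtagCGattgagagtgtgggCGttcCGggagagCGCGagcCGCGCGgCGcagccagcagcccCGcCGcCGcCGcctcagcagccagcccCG
Internal start, chr4:32417185-32417434: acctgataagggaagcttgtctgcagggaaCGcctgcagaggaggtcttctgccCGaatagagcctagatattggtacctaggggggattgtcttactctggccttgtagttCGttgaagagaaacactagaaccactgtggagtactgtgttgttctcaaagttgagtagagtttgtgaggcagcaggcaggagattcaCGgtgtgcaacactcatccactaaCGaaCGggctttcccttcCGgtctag
The sequence before the 5′ start held 35 CG dinucleotides and was 71.2% G or C. Of 32851 promoters of RefSeq with the same length, 2.97% had as many CG dinucleotides, and the median was 6. The sequence before the internal start held 7, a number reached by 46.3% of those promoters.

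CTCF binding was not measured here. A strict form of the CTCF core motif, the 12 bases in capitals below with any base at the fourth and the fifth place, was searched on both strands to show where such letters lie in the window. The 2 matches in the gene, the nearest one on each side of it and the one in the bin at 786 kb, a partner in several changes below, are given with 12 bases on each side and the match in capitals. Each is written along the strand that reads as the motif.
Match at -371.5 kb, minus strand, chr4:31867306-31867341: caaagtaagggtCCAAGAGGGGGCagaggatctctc
Match at 10.2 kb, in the start bin, minus strand, chr4:32249014-32249049: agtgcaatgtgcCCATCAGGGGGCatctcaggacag
Match at 103.7 kb, in the gene body, plus strand, chr4:32342480-32342515: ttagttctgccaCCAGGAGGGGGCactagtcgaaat
Match at 382.8 kb, past the gene's end, plus strand, chr4:32621571-32621606: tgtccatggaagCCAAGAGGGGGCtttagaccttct
Match at 779.8 kb, in the bin of Rragd and Ube2j1, minus strand, chr4:33018560-33018595: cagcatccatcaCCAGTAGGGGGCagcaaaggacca
The other 5 lay at 533.9, 688.8, 755.5, 1318.3 and 1748.8 kb. In all, 10 of the 88 window bins held a match, or 11.4%, against 12% of all kept bins, so the window was not richer in these letters than other bins. A match is a description of sequence and not a bound site.

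The window had an uneven layout. The only protein-coding gene that starts in the upstream flank is Map3k7, a kinase of inflammatory signalling, at -274.7 kb, and the rest of that flank is free of protein-coding genes. The downstream flank is dense, with 16 genes that start there, from Gja10 (a connexin) at 364 kb and Casp8ap2 (a regulator of histone messenger RNA) at 376.6 kb to Akirin2 (a nuclear protein) at 2312.1 kb. Mdn1, which acts in ribosome assembly, starts at 418.3 kb, Rragd, a GTPase of nutrient sensing, at 744.2 kb, Ube2j1, a ubiquitin-conjugating enzyme, at 792.6 kb, and Gabrr1, a GABA receptor subunit, at 893.7 kb.

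The compartment score, the first principal component of the correlated contact profile in 100 kb bins, placed Bach2 in the A compartment in all 8 libraries. The start lay in a bin with scores of 1.304 and 1.24 for 3 h, 1.25 and 1.27 for 10 h, 1.31 and 1.29 for imminent division, then 1.29 and 1.34 for pre-S, above 87.4% of 23552 autosomal bins. Both 10 h libraries lay below the 4 libraries of 33 h and within the range of 3 h, and limma called no change at this bin in any of the 4 comparisons made, which were 10 h against 3 h, imminent division against 10 h, pre-S against 10 h and imminent division against pre-S. The differences were -0.01, 0.04, 0.06 and -0.01, with adjusted p-values of 0.903, 0.321, 0.191 and 0.773. In bins of 250 kb the difference between both 33 h groups was -0.07 and passed (adjusted p = 0.0107). None of the 4 bins of the gene was called in any comparison, although 29.7% of all bins were called at imminent division, 24.2% in pre-S, 5.62% at 10 h and 17.9% between both 33 h groups.

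The scores on either side of the gene did change. Of the 44 compartment bins of the window, 18 were in the A compartment and 25 in the B compartment in every library, and 1, at -389 kb, changed sign. That bin scored 0.21 and 0.23 for 3 h, 0.19 and 0.27 for 10 h, -0.09 and -0.09 for imminent division, then -0.16 and -0.14 for pre-S. It was positive in all 4 libraries of the first 10 h and negative in all 4 libraries of 33 h, with a difference from 10 h of -0.32 at imminent division (adjusted p = 3.59e-05) and -0.38 in pre-S (adjusted p = 2.96e-05). The neighbouring bin at -289 kb, which holds the start of Map3k7, stayed positive with means of 1.09, 1.02, 0.69 and 0.72 in the order of the groups. In the window 20 bins fell and 0 rose at imminent division, 7 upstream and 13 downstream of the gene, and 22 fell and 0 rose in pre-S, 5 upstream and 17 downstream. Of all compartment bins 15.9% fell and 13.8% rose at imminent division, and 13.2% fell and 11% rose in pre-S. At 10 h 1 window bin fell (2.67% of all), and 5 were higher at imminent division than in pre-S (9.29% of all).

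**Figure D1:**
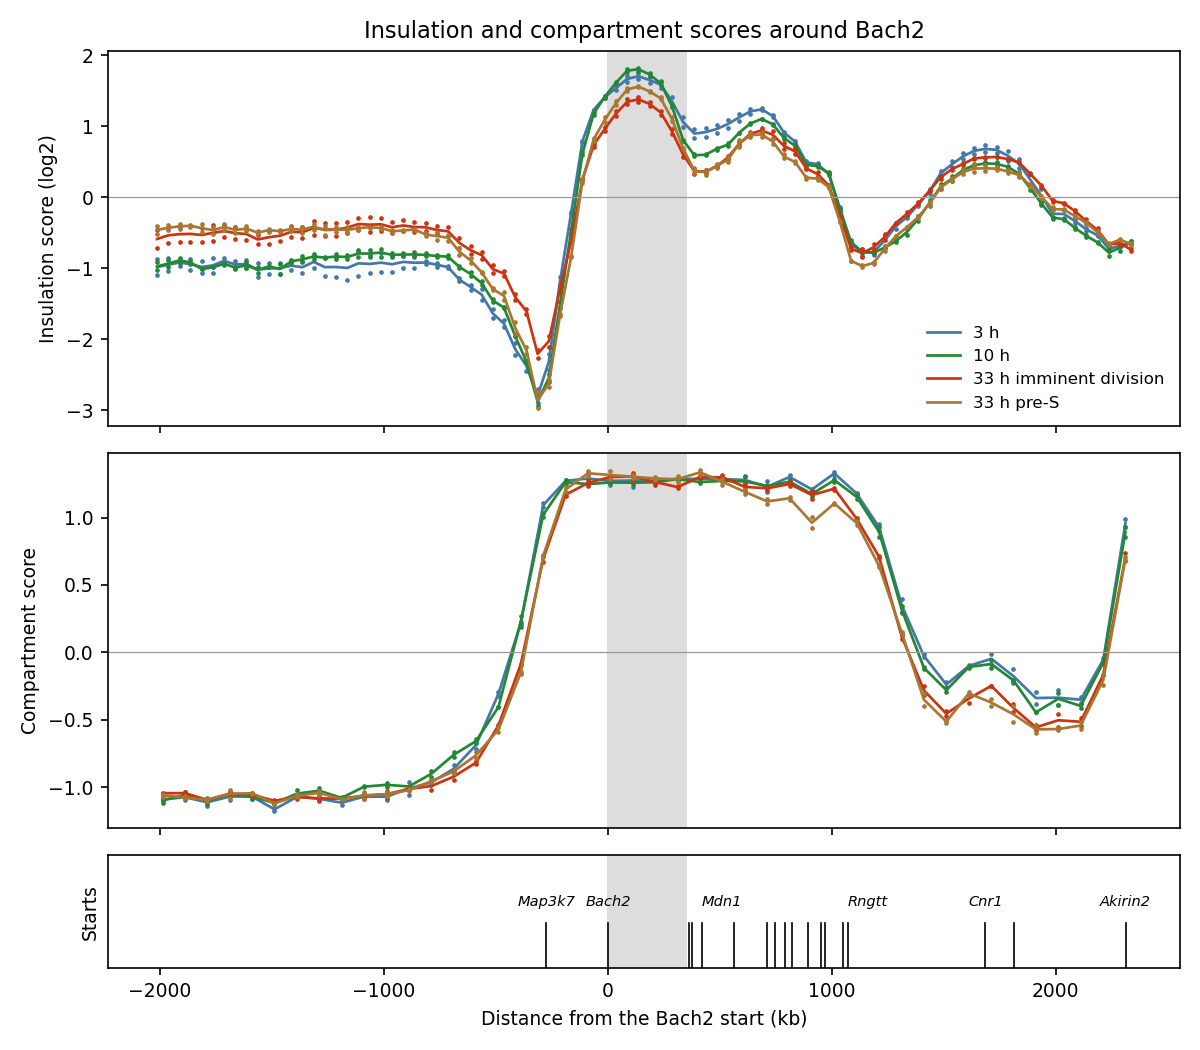
Insulation score (log2, 50 kb bins, top), compartment score (100 kb bins, middle) and starts of protein-coding genes (bottom) across the Bach2 window against the distance from the Bach2 start in kb, with a line for the mean of each group, a point for each library and the gene shaded. The insulation score dips to its lowest values at -314 kb, where the 2 imminent division libraries lie above the other 6, and the compartment score of the gene stays near 1.3 in every group.

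The strongest separation of the window lay between Bach2 and its gene-free upstream flank. The insulation score compares the contacts that cross a bin, between the 500 kb on either side, with the genome-wide mean on a log2 scale, so that a low score marks a barrier. At -314 kb (chr4:31899543-31950021), just before Map3k7 and next to the bin whose compartment sign changed, it was -2.70 and -2.89 for 3 h, -2.94 and -2.82 for 10 h, -2.15 and -2.26 for imminent division, then -2.97 and -2.74 for pre-S. Only 0.118% of 46751 bins with a score had a lower mean, and it was the only local minimum of the window under the 10th percentile of all bins. Both imminent division libraries were higher than the other 6. The score rose by 0.67 at imminent division from 10 h (SE 0.09, limma adjusted p = 0.000632) and was 0.65 higher there than in pre-S (SE 0.09, adjusted p = 0.00614). In pre-S the difference from 10 h was 0.02 (SE 0.09, adjusted p = 0.857). The rise from 10 h passed in every alternative run, whereas the difference from pre-S was lost without the first imminent division library (0.60, adjusted p = 0.0544), on leaving out the first pre-S library (0.54, adjusted p = 0.0847) and with squares of 1 Mb (0.29, adjusted p = 0.0847).

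Over Bach2 itself the score moved the other way. The start bin scored 1.42 and 1.39 for 3 h, 1.43 and 1.40 for 10 h, 0.94 and 0.99 for imminent division, then 1.13 and 1.06 for pre-S, and its mean over the libraries was above that of 97.8% of bins. The 4 libraries of 33 h were lower than the 4 earlier ones. From 10 h the score fell by 0.45 at imminent division (SE 0.05, adjusted p = 0.00033) and by 0.32 in pre-S (SE 0.05, adjusted p = 0.00272), whereas from 3 h to 10 h it differed by 0.01 (adjusted p = 0.985), a comparison in which 0 of all bins were called. All 8 bins of the gene fell at imminent division and 7 of the 8 in pre-S, where 64.5% and 57.8% of all bins were called, 20.5% and 20.4% as lower. The median change of the gene bins was -0.42 and -0.24, against 0.12 and 0.06 over all bins. In the upstream flank beyond 500 kb, all 31 bins rose at imminent division and 29 of 31 in pre-S, where 43.9% and 37.4% of all bins rose. Neighbouring bins, in the gene as in the flank, rest on overlapping squares of contacts, so their calls are not independent of each other.

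The values at the start bin depended on how the bins' own coverage was treated. Interchromosomal coverage, the log2 of a bin's contacts with other chromosomes over the library mean, was 1.00 and 0.88 for 3 h, 0.96 and 0.85 for 10 h, 0.67 and 0.81 for imminent division, then 0.60 and 0.57 for pre-S for the start bin. It was thus lower in both pre-S libraries than in any other library. When counts were divided by this coverage, the fall at imminent division stood, the difference of 10 h from 3 h became 0.24 and passed (adjusted p = 0.00199), and the pre-S difference from 10 h became 0.07 (adjusted p = 0.331), while the imminent division group came to lie 0.53 below pre-S (adjusted p = 1.01e-14). The part of coverage in these differences was not tested.

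Contacts within the gene body were among the densest of all long genes when set against distance alone. Of the 1108 autosomal protein-coding genes that span at least 5 bins, between 3 and 8 had a higher ratio of observed contacts to those expected from the distance alone. This ratio was 2.64 and 2.58 for 3 h, 2.96 and 2.84 for 10 h, 2.06 and 2.21 for imminent division, then 2.32 and 2.36 for pre-S, against group medians of 0.945 to 0.980 over all these genes. With coverage taken into the expected count, the ratio was between 0.742 and 1.138 and higher than in 25.5% to 52.8% of genes. From distance alone the values at 10 h were the highest and those at imminent division the lowest, with no overlap between any 2 groups. With coverage the pre-S libraries were the highest (1.081 and 1.138, against 1.027 and 1.026 for 10 h), and imminent division (0.863 and 0.742) overlapped 3 h (0.862 and 1.001).

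From 10 h to imminent division the contacts within the gene fell by 0.44 on the log2 scale (SE 0.05, adjusted p = 0.000748, edgeR quasi-likelihood test), in a comparison that called 38.9% of gene bodies and had a median change of 0.05. In pre-S they fell by 0.31 (SE 0.05, adjusted p = 0.00421), where 45.3% were called, 26.9% as higher and 18.4% as lower. The rise of 0.15 from 3 h to 10 h had an adjusted p of 0.494 (SE 0.05), and 0 of 1108 gene bodies were called there, as no gene reached the threshold. Imminent division and pre-S differed by -0.13 (adjusted p = 0.161), a comparison that called 0.0903% of gene bodies. With coverage in the offsets the imminent division call stood, the pre-S difference became 0.11 (adjusted p = 0.106), and imminent division came to lie 0.47 below pre-S (adjusted p = 4.14e-09). The pre-S call was also lost without the first 10 h library (-0.28, adjusted p = 0.0602) or the first pre-S library (-0.29, adjusted p = 0.0695).

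**Figure D2:**
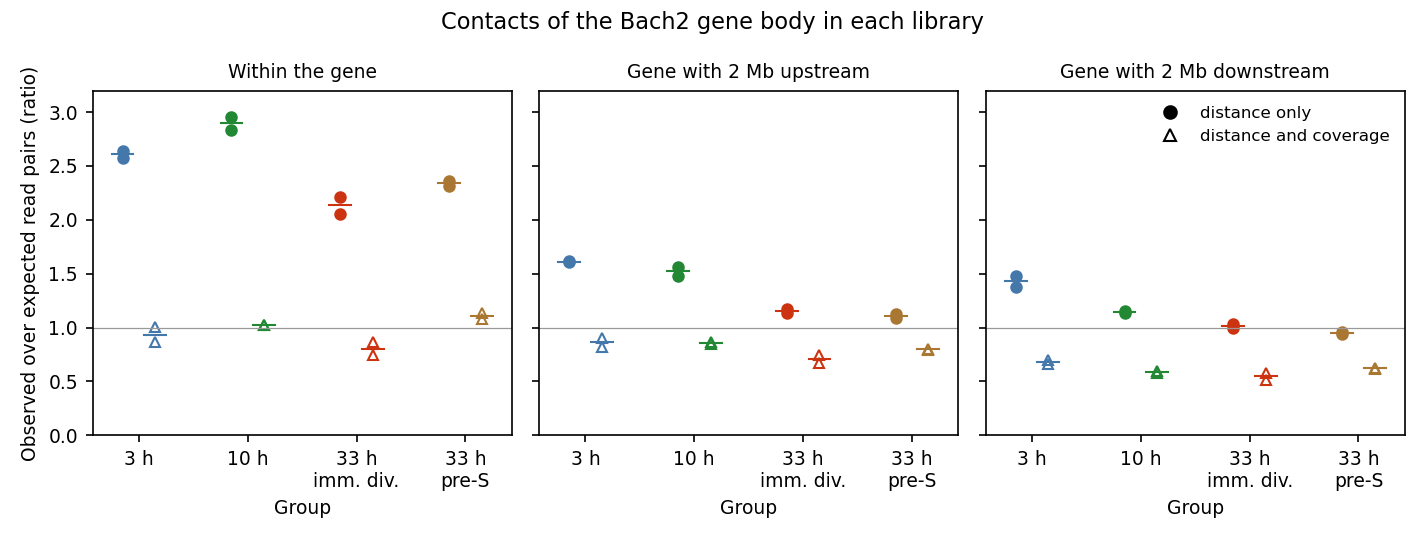
Observed over expected read pairs (linear ratio, vertical axis) within the Bach2 gene, between the gene and the 2 Mb upstream, and between the gene and the 2 Mb downstream, in the 4 groups, with a point for each library and a line at each group mean. Circles take the expected count from distance alone and triangles from distance and coverage. Circles within the gene are highest at 10 h (2.84 and 2.96), and those with the downstream flank are already lower at 10 h than at 3 h.

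The contacts of the gene with its upstream flank changed between 10 h and 33 h. The ratio of observed to expected was 1.60 and 1.62 for 3 h, 1.56 and 1.48 for 10 h, 1.136 and 1.17 for imminent division, then 1.13 and 1.09 for pre-S, so all 4 libraries of 33 h were below the earlier ones. The change from 10 h was -0.40 at imminent division (SE 0.04, adjusted p = 8.69e-05) and -0.45 in pre-S (SE 0.05, adjusted p = 0.000337), against 60.5% and 56% of upstream flanks called and medians of 0.07 and 0.01. Of all upstream flanks 39.6% rose and 20.8% fell at imminent division. The differences between 3 h and 10 h (-0.08, adjusted p = 0.439, 0.722% called, 0.632% as lower) and between both 33 h groups (0.06, adjusted p = 0.429, 18.9% called) did not pass. With coverage in the offsets the pre-S change was -0.10 (adjusted p = 0.129), the imminent division call stood, and imminent division came to lie 0.17 below pre-S (adjusted p = 0.00742).

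The contacts of the gene with its downstream flank were already called as lower at 10 h. Upstream ratios at 10 h also lay below those of 3 h (1.56 and 1.48 against 1.60 and 1.62), without a call. The 2 flanks were not tested against each other. The ratio was 1.48 and 1.38 for 3 h, 1.13 and 1.15 for 10 h, 0.9991 and 1.03 for imminent division, then 0.961 and 0.943 for pre-S. The 10 h libraries lay below those of 3 h, and both 33 h groups lay below 10 h. The fall from 3 h to 10 h was 0.32 on the log2 scale (SE 0.05, adjusted p = 0.0354), and Bach2 was the only 1 of 1108 genes, 0.0903%, whose downstream flank passed. The size of this change hardly moved in any alternative that left out a library (-0.37 to -0.27), but the adjusted p rose above 0.05 on leaving out the first or second 10 h library (0.674 and 0.434), imminent division library (0.0658 and 0.0673) or pre-S library (0.169 and 0.171), and with a replicate block (0.160). Further falls from 10 h were 0.17 at imminent division (SE 0.05, adjusted p = 0.0101, 57% called) and 0.26 in pre-S (SE 0.05, adjusted p = 0.00183, 55.8% called). With coverage in the offsets they became -0.11 (adjusted p = 0.0554) and 0.08 (adjusted p = 0.211). The first was also lost without either 10 h library (adjusted p = 0.05003 and 0.0849) or the first imminent division library (adjusted p = 0.0577). Both 33 h groups differed by 0.09 (adjusted p = 0.193, 15% called), which became -0.19 with coverage and passed (adjusted p = 0.00199).

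The start bin's own profile gave its contacts with each other bin of the window. Its ratios take the expected count from distance alone, and the part of coverage in them was not tested. Within the gene, its ratio of observed to expected was lowest with the next bin at 36 kb, with group means between 1.103 and 1.75, and highest with the last bin of the gene at 336 kb, with means of 5.18 (3 h), 5.88 (10 h), 3.91 (imminent division) and 4.79 (pre-S). Over the 7 other bins of the gene the mean was 2.65, 2.98, 2.23 and 2.32 in the same order. With the 5 bins between the start and the insulation minimum it was 3.44, 3.14, 2.30 and 2.20. With the 34 bins beyond that minimum it was 0.0755, 0.0685, 0.144 and 0.0653, from 13 to 81 read pairs a library, so the imminent division value was the highest of the 4 although it rested on few counts. Downstream of the gene the ratio rose again around 786 kb, in the bin of Rragd and Ube2j1, with means of 2.98, 3.21, 2.25 and 2.73.

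**Figure D3:**
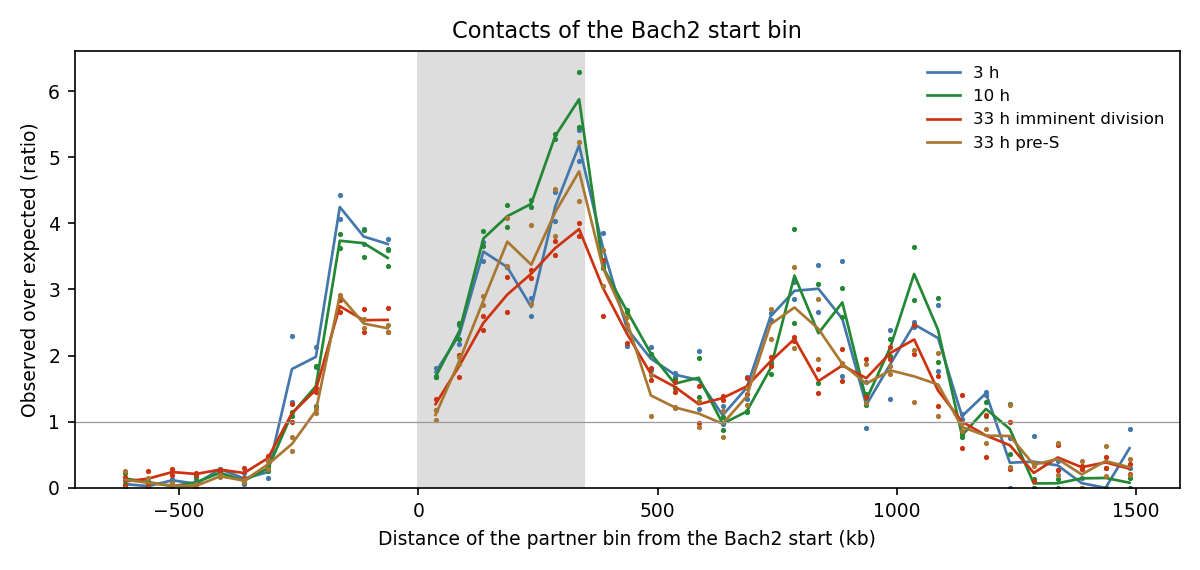
Observed over expected read pairs of the Bach2 start bin (vertical axis, linear ratio) with other bins, against the distance of the partner bin from the start in kb, with a line for the mean of each group, a point for each library and the gene shaded. The ratio is near 0 before -314 kb and highest at 336 kb, in the last bin of the gene, and it rises again around 786 kb. The expected count is from distance alone, without coverage.

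Promoter interactivity, the sum of the start bin's contacts on its chromosome with partners over 0.614 log2 units above the distance curve, changed little. In normalised read pairs it was 3023 and 3151 for 3 h, 3152 and 3101 for 10 h, 2903 and 2992 for imminent division, then 2957 and 2913 for pre-S. The 4 libraries of 33 h were the lowest. The sum took in 170 partner bins, 22 of them in the window and 130 more than 10 Mb away, and it exceeded that of 99% of 12337 promoter bins tested. The change from 10 h was -0.08 at imminent division (SE 0.04, adjusted p = 0.0469, edgeR quasi-likelihood test) and -0.09 in pre-S (SE 0.04, adjusted p = 0.0641), where 51.1% and 35% of promoter bins were called. It was 0.01 from 3 h to 10 h (adjusted p = 0.917, 0.9% called) and 0.01 between both 33 h groups (adjusted p = 0.926, 19.8% called). The call at imminent division was fragile. It was lost with TMM factors, with DESeq2, with a replicate block (adjusted p = 0.0657) and without any 1 library of the 10 h, imminent division or pre-S groups (adjusted p = 0.0505 to 0.274), and the sign turned with coverage in the offsets (0.10, adjusted p = 0.0610) and without the filter on partner bins (0.05, adjusted p = 0.195). The pre-S fall passed with TMM factors (-0.16, adjusted p = 0.00262) and on leaving out the first or second 3 h library (adjusted p = 0.0415 and 0.0465), and became 0.12 with coverage (adjusted p = 0.0616).

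Differential interactions (DIs) were tested for each pair of bins. Of 1458180 autosomal bin pairs tested, 1662 had both bins in the window. From 3 h to 10 h only 1 of the 1662 passed, as stronger, where 0.000617% of all pairs were called, 0.000549% as stronger and 6.86e-05% as weaker. It joined the bin of the Map3k7 start at -264 kb with the bin at 436 kb, which holds the start of Mdn1 and the end of Casp8ap2, and so passed over the whole of Bach2. Its normalised counts were 27.7 and 34.6 for 3 h, 77.9 and 72.8 for 10 h, 42.1 and 44.1 for imminent division, then 65.4 and 74.2 for pre-S. It was high in the 10 h and pre-S libraries, and gained 1.22 on the log2 scale at 10 h (SE 0.23, adjusted p = 0.0319). It was lower again at imminent division than at 10 h by -0.80 (SE 0.18, adjusted p = 0.00506). The call at 10 h was lost without any 1 library of the 3 h or 10 h groups (adjusted p = 0.170 to 0.587), with offsets from distance, with DESeq2 and with the wider filter.

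At imminent division 10 pairs of the window were stronger and 45 weaker than at 10 h, or 3.31% of the window's pairs against 2.01% of all pairs. The weaker DIs lay in the gene and across it. Of the 28 pairs with both bins in Bach2, 8 were weaker, 0 stronger, and all 28 had a lower value. Of the 55 pairs of a gene bin with an upstream bin 12 were weaker, of the 139 with a downstream bin 4 were weaker and 1 stronger, and of the 307 pairs that joined the flanks over the gene 19 were weaker. The flanks themselves showed 5 stronger and 0 weaker among 559 upstream pairs and 4 stronger and 2 weaker among 574 downstream pairs. Of all pairs tested, 0.691% were stronger and 1.32% weaker. With coverage in the offsets, the weaker DIs were 3 in the gene, 8 with the upstream flank and 17 across the gene, and stronger DIs within the flanks rose to 32 upstream and 43 downstream. With TMM factors 27 of the 28 pairs in the gene and 20 of the 55 with the upstream flank were weaker, and with offsets from distance 26 and 27. The shares over all pairs with these offsets are not given here. Counts of DIs with other offsets, here and below, therefore stand without a background.

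The 5 weaker DIs with the smallest p all reached over the gene or from its last bin. The pair of -314 with 836 kb, the bin of Ube2j1 and Gabrr2, had 25.9 and 43.6 normalised read pairs for 10 h and 12.6 and 14.1 for imminent division (log2 change -1.41, SE 0.29, adjusted p = 0.00093), and it was lost without the second 10 h library (-0.95, adjusted p = 0.358). The bin at -214 kb, in Map3k7, and the bin at 786 kb, of Rragd and Ube2j1, shared 50.6 and 53.6 normalised read pairs for 3 h, 66.3 and 60.8 for 10 h, 28.0 and 34.6 for imminent division, then 52.4 and 53.3 for pre-S. Both imminent division libraries were the lowest, and the log2 change from 10 h was -1.001 (SE 0.20, adjusted p = 0.000939). The last bin of Bach2, at 336 kb, with the same bin at 786 kb had 73.0 and 72.7 for 10 h against 35 and 43.1 for imminent division (log2 change -0.89, SE 0.19, adjusted p = 0.00194). It was lost without the second 10 h library (adjusted p = 0.0808) or the first imminent division library (adjusted p = 0.0661). The last bin of Bach2 also lost contacts with -214 kb, by 0.66 (SE 0.15, adjusted p = 0.00321), and with the bin of Gabrr1 at 886 kb, by 0.88 (SE 0.20, adjusted p = 0.00376). Both calls were lost without the first 10 h library (adjusted p = 0.0976 and 0.145) and without the second or first imminent division library in turn (adjusted p = 0.0701 and 0.0826). Within the gene, the pair of the bins at 236 and 286 kb had 528.5 and 436.6 for 10 h and 350.6 and 392.6 for imminent division (log2 change -0.36, SE 0.08, adjusted p = 0.00377). The last bin of Bach2 gained contacts with the bin at 2336 kb that holds Akirin2 (log2 change 1.82, SE 0.54, adjusted p = 0.0431). Its normalised read pairs were 3.4 and 3.5 for 10 h and 13.7 and 11.4 for imminent division, from raw counts of 3, 4, 17 and 17. This call was lost with TMM factors, with offsets from distance and with a replicate block. In each, 0 of the 139 pairs of a gene bin with a downstream bin were stronger. The other stronger DIs with small p lay within the flanks, at 1136 with 1587 kb (1.1396, adjusted p = 0.0272), -764 with -514 kb (1.0, adjusted p = 0.0300), 486 with 686 kb (0.64, adjusted p = 0.0343) and 1236 with 1386 kb (0.69, adjusted p = 0.0368), and each was lost without either 10 h library. The number of DIs rested on the libraries, with 13 or 6 called without the first or second 10 h library and 13 or 23 without the first or second imminent division library, and DESeq2 called 0.

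**Figure D4:**
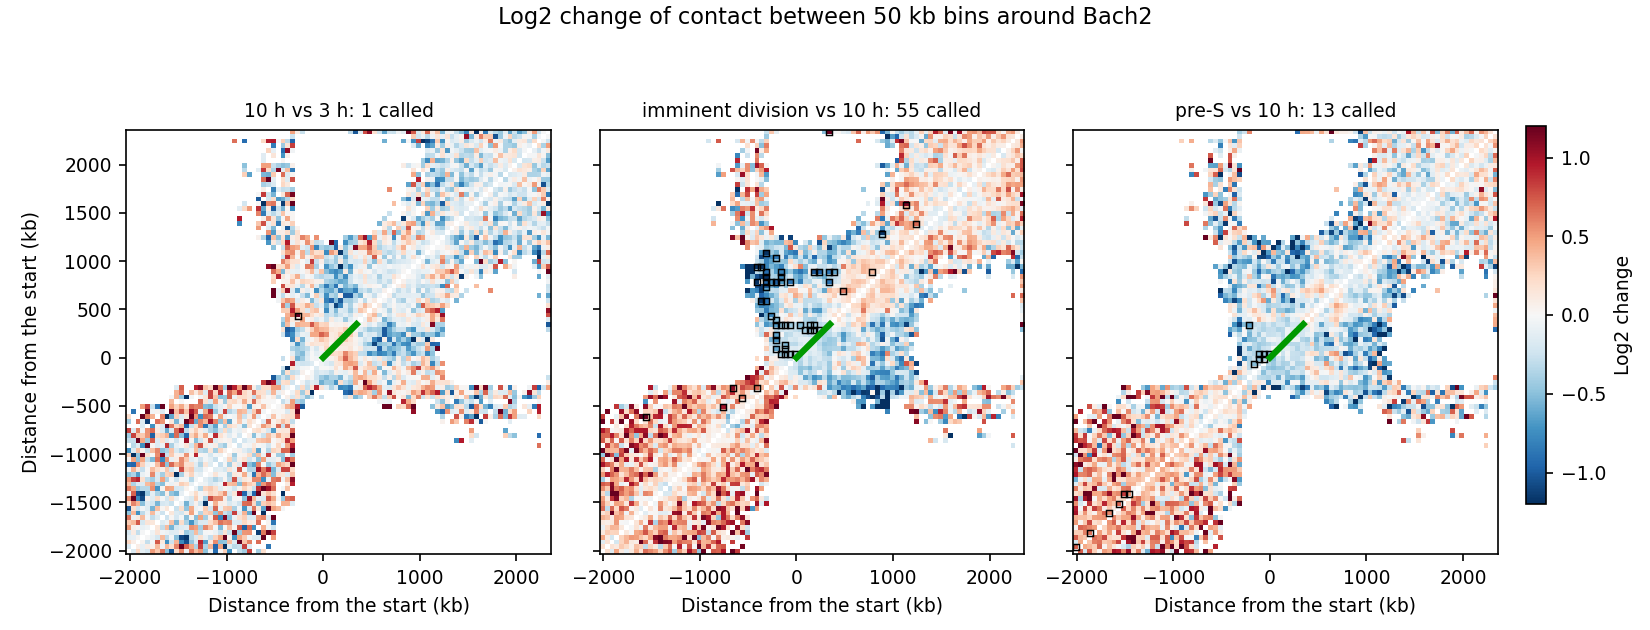
Log2 change of each tested pair of 50 kb bins of the Bach2 window in 3 comparisons, with the distance of both bins from the start in kb on the axes, red for stronger and blue for weaker contacts, a green bar for the gene and squares around the DIs. At imminent division blue fills the gene and the pairs that join its neighbours across it, and the 55 DIs include 45 weaker ones.

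Among the pairs of the start bin, 1 of 31 was weaker at imminent division, where 1.32% of all pairs were weaker, and 3 of 31 in pre-S, where 0.255% were. With TMM factors, and likewise with offsets from distance, 9 of 31 were weaker at imminent division, and with coverage 0. In pre-S 24 of the 31 had a lower value than at 10 h (median -0.29), but 7 with coverage in the offsets (median 0.13). At imminent division these were 21 (median -0.18) and 16 (median -0.02). The pair with the next bin of the gene, at 36 kb, had normalised counts of 311.0 and 340.2 for 3 h, 310.6 and 315.8 for 10 h, 235.7 and 260.0 for imminent division, then 236.9 and 204.4 for pre-S. All 4 libraries of 33 h were below the earlier ones, with a log2 change from 10 h of -0.33 at imminent division (SE 0.09, adjusted p = 0.0310) and -0.50 in pre-S (SE 0.11, adjusted p = 0.00444). Under offsets with coverage these became -0.19 (adjusted p = 0.344) and -0.17 (adjusted p = 0.661), and the first was also lost without either 10 h library or the first imminent division library (adjusted p = 0.147, 0.269 and 0.241). The second was lost without either 10 h library or the second pre-S library (adjusted p = 0.0565, 0.110 and 0.208). The pair with the bin at -64 kb, next to the start on its other side, had 622.1 and 666.9 for 3 h, 596.1 and 658.0 for 10 h, 516.3 and 557.9 for imminent division, then 483.4 and 502.2 for pre-S. It fell in pre-S by 0.35 (SE 0.08, adjusted p = 0.00961), a change that became 0.04 with coverage in the offsets and was lost on leaving out the second 10 h library or either pre-S library (adjusted p = 0.0826 to 0.328). The pair with the bin at -114 kb fell in pre-S by 0.46 (SE 0.11, adjusted p = 0.009997), from 332.4 and 303.2 for 10 h to 234.6 and 224.3, and by 0.09 with coverage in the offsets (adjusted p = 0.854), and it was lost on leaving out any 1 library of 10 h or pre-S (adjusted p = 0.0532 to 0.198). Outside the start bin, -164 with -64 kb (-0.50, adjusted p = 0.0300) and -214 with 336 kb (-0.66, adjusted p = 0.0307) were also weaker in pre-S, and both were lost without any 1 library of 10 h or pre-S.

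The contacts of the 5′ start with the bin of the internal start did not pass in any comparison. Their normalised counts were 151.0 and 151.1 for 3 h, 197.6 and 185.4 for 10 h, 182.9 and 147.2 for imminent division, then 163.9 and 201.9 for pre-S. The 10 h libraries lay above those of 3 h, with a log2 change of 0.34 (SE 0.13, adjusted p = 0.706). The largest change of a start bin pair from 3 h to 10 h was with the bin at 236 kb, 0.71 (SE 0.14, adjusted p = 0.0720).

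**Figure D5:**
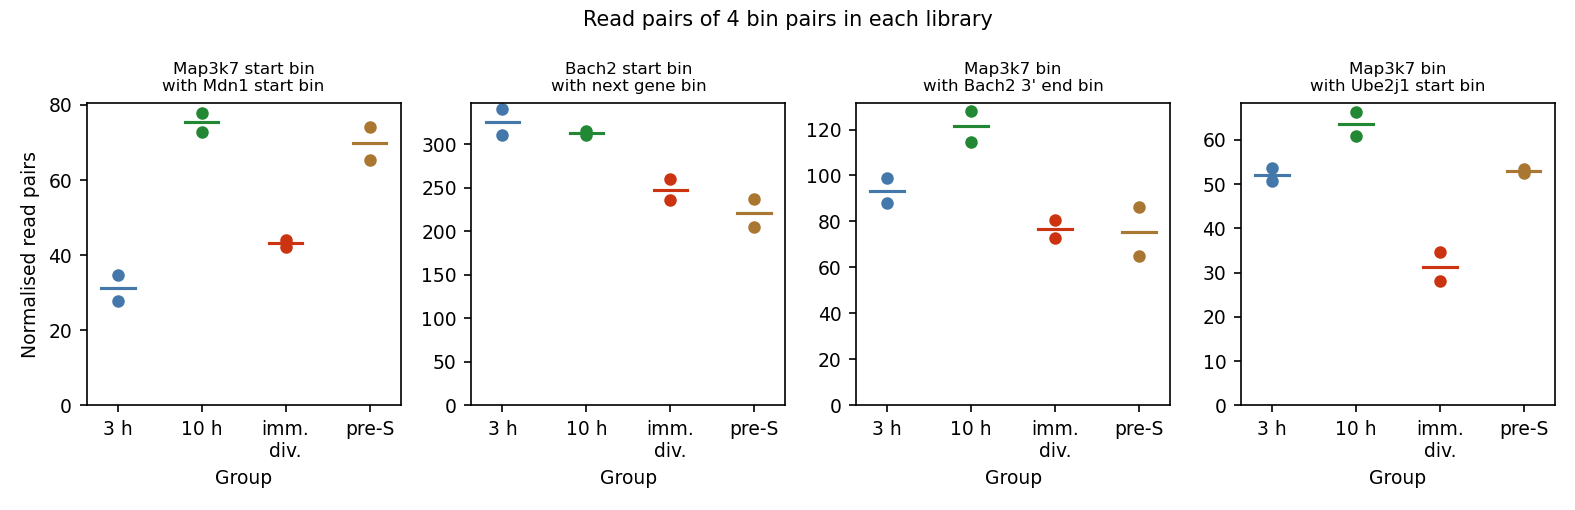
Normalised read pairs (vertical axes, linear, from 0) of 4 bin pairs of the Bach2 window in the 4 groups, with a point for each library and a line at each group mean. From left to right they join -264 with 436 kb, -14 with 36 kb, -214 with 336 kb and -214 with 786 kb. The first is highest at 10 h and in pre-S, and the second is lower in all 4 libraries of 33 h.

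In pre-S 6 pairs of the window were stronger and 7 weaker than at 10 h, where 0.594% of all pairs were called. All 28 pairs within the gene had a lower value, of which 1 was called, and 5 of the 55 pairs with the upstream flank were weaker. Once coverage entered the offsets, 11 of the 28 pairs had a lower value with a median of 0.07, 28 of the 55 pairs were lower, and 0 of either were called. The 6 stronger ones all joined near bins of the gene-free flank, such as -1564 with -1514 kb (108.4 and 104.1 for 10 h against 188.8 and 154.5 for pre-S, log2 change 0.70, SE 0.14, adjusted p = 0.00196). Of the 5 with the smallest p, 4 changed sign with coverage in the offsets and the other, -1564 with -1514 kb, became 0.24 (adjusted p = 0.598). Without a library of either group 0 to 3 pairs of the window were called. Both 33 h groups were compared directly, with 0.36% of all pairs called. In the window 5 pairs were stronger at imminent division and 3 weaker than in pre-S, and none of the 31 pairs of the start bin and none of the 28 pairs within the gene was among them. When coverage entered the offsets, 1 of the 31 and 2 of the 28 were weaker at imminent division, and the number of gene pairs with a lower value went from 17 to 28. Offsets from distance called 1 of the 28. Besides the pair named next, the stronger ones were 786 with 886 kb (0.54), 636 with 886 kb (0.67), 636 with 786 kb (0.56) and 1136 with 1587 kb (1.304), and the 3 weaker ones joined near bins of the gene-free flank, at -1564 with -1514, -1464 with -1414 and -1664 with -1614 kb. Each of these was lost on leaving out the second imminent division library, and likewise the first pre-S library. The pair of the -414 and -314 kb bins, both in the gene-free flank before Map3k7, was stronger at imminent division than in pre-S by 0.72 (SE 0.16, adjusted p = 0.0128) and than at 10 h by 0.69 (SE 0.15, adjusted p = 0.00381). Its normalised counts were 60.8 and 91.1 for 3 h, 75.5 and 65.7 for 10 h, 110.7 and 115.1 for imminent division, then 75.7 and 60.6 for pre-S. The difference from pre-S was 0.48 with coverage in the offsets (adjusted p = 0.123) and was lost on leaving out the second imminent division library or either pre-S library (adjusted p = 0.118 to 0.335), and the one from 10 h was lost without the second 10 h library (0.58, adjusted p = 0.223). The comparisons with 10 h share the 10 h libraries, so their lists are given side by side.

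The strength of a TAD boundary was read from the ratio of a region's upstream to its downstream contacts over 1 Mb, in 100 kb regions and on a log2 scale, and a region was called where the ratio changed by more than 1.1-fold, as stronger where its size on the log2 scale grew and as weaker where it shrank. From 3 h to 10 h 2 of the 44 regions of the window were called, both as stronger, where 0.377% of all regions passed. They lay at the gene's 2 ends. The region at 11 kb, over the start, went from -0.46 to -0.77 (adjusted p = 0.0241), that is towards downstream contacts, and the region at 311 kb, in the last part of the gene, from 0.93 to 1.31 (adjusted p = 0.000907), towards upstream contacts. Without the second 3 h library or the first 10 h library 0 regions were called, and without the second 10 h library 1.

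At imminent division 7 regions were weaker and 1 stronger than at 10 h, where 18% of all regions passed. Of the 7, the region at 511 kb changed the sign of its ratio (0.20 to -0.12), so its size hardly differed. The regions at -289 and -189 kb, over Map3k7, went from -1.40 to -0.66 and from -3.32 to -2.62 (adjusted p = 1.66e-14 and 1.53e-12), and both were also weaker than in pre-S (-1.09 and -3.12, adjusted p = 0.000514 and 3.25e-05, in a comparison that called 5.55% of regions and 3 of the 44). The region at 311 kb went back from 1.31 to 0.98 (adjusted p = 0.000185). In pre-S 2 regions were called, both as stronger, where 4.8% passed. They were the start region, at -1.03 (adjusted p = 0.0488), and a region of Rngtt, the capping enzyme, at 1211 kb (adjusted p = 0.0240). The number called was 1 or 0 on leaving out the first or second 10 h library, 0 or 1 on leaving out the first or second pre-S library, 0 with 500 kb on each side and 1 with a replicate block.

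The promoter bins around Bach2 were tested in the same way. Of 15 promoter bins tested in the window, 12 rose and 1 fell at imminent division, the 1 that fell being that of Bach2. In pre-S 6 rose and 1 fell, at 10 h 1 rose, and between both 33 h groups 5 were higher at imminent division. Over all promoter bins 25.5% rose and 25.6% fell at imminent division, 18.1% rose and 16.9% fell in pre-S, 0.73% rose at 10 h and 9.06% were higher at imminent division than in pre-S. The bin of Mdn1 rose in 3 comparisons in turn, by 0.18 at 10 h (SE 0.05, adjusted p = 0.0288), and from there by 0.10 at imminent division (SE 0.04, adjusted p = 0.0490) and by 0.17 in pre-S (SE 0.05, adjusted p = 0.00217). Its values were 1731 and 1829 for 3 h, 2008 and 2046 for 10 h, 2200 and 2140 for imminent division, then 2415 and 2150 for pre-S, so all later libraries were above those of 3 h. The bin shared by Gja10 and Casp8ap2, right after the gene, rose by 0.13 and 0.16 (adjusted p = 0.00581 and 0.00245) and that of Map3k7, right before it, by 0.15 in pre-S (adjusted p = 0.0122), with 0.06 at imminent division (adjusted p = 0.238) and a difference of -0.09 between both (adjusted p = 0.176). The bin that holds the starts of Ankrd6 and Rragd rose by 0.26 at imminent division (adjusted p = 1.69e-06) and by 0.12 in pre-S (adjusted p = 0.0487), and was higher at imminent division (0.14, adjusted p = 0.0224). Cnr1, the cannabinoid receptor, was the 1 that fell in pre-S (-0.36, adjusted p = 0.00853), at 164.8 and 196.1 against 214.1 and 242.3 for 10 h. Once coverage entered the offsets, Map3k7 was at 0.06 in pre-S (adjusted p = 0.453), and the shared bin of Gja10 and Casp8ap2 at 0.05 at imminent division and 0.07 in pre-S (adjusted p = 0.479 and 0.312). The shared bin was also lost at imminent division without the second 10 h library (0.12, adjusted p = 0.0841) and in pre-S on leaving out the first pre-S library (0.104, adjusted p = 0.184), and Map3k7 on leaving out the first 10 h (0.12, adjusted p = 0.132) or first pre-S library (0.09, adjusted p = 0.322). The rise of Mdn1 at 10 h was lost without any 1 library of 3 h or 10 h (adjusted p = 0.0654 to 0.375), with TMM factors (0.0721), with a replicate block (0.0591), with DESeq2 (0.468) and without the filter on partner bins (0.955), its rise at imminent division without either 10 h library or the first imminent division library (adjusted p = 0.128 to 0.236) and its rise in pre-S on leaving out the first pre-S library (0.08, adjusted p = 0.313). The pre-S rise of Ankrd6 and Rragd was lost without any 1 library of the 3 later groups (adjusted p = 0.0504 to 0.342), and the fall of Cnr1 on leaving out the second 10 h or the first pre-S library (adjusted p = 0.191 and 0.255). The fall of Cnr1 became 0.17 without the filter on partner bins. Of 13 alternatives, 7 lost the rise of Mdn1 at imminent division and 10 the pre-S rise of Ankrd6 and Rragd. The difference of the bin of Ankrd6 and Rragd between both 33 h groups was lost in 3 and changed sign in 1, without the filter. Fewer window bins rose at imminent division on leaving out either 10 h library or the first imminent division library. In pre-S fewer rose on leaving out either 10 h library or the first pre-S library. The number of risers over all promoter bins was lower in these runs too. Without the filter on partner bins, 10 of 16 bins rose at imminent division, 12 of 16 in pre-S and 0 of 16 differed between both 33 h groups. DESeq2 called 8 risers at imminent division, 2 in pre-S and 2 between both, TMM factors gave 10, 3 and 6, and coverage in the offsets 10, 8 and 3. Over all 12337 promoter bins, DESeq2 called 2048, 1150 and 238 as higher in these 3 comparisons. TMM factors called 3057, 2833 and 1210, and coverage in the offsets 2668, 1733 and 1300. Without the filter, 3048, 3400 and 798 of 13301 were higher, and 1105 were lower between both 33 h groups.

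Of the other promoter bins of the downstream flank, 9 rose at imminent division, by 0.10 to 0.23, and Cnr1 was at 0.09 (adjusted p = 0.405). Rngtt had the largest rise among them (0.23, SE 0.04, adjusted p = 1.82e-05), which passed in every alternative run, and it rose by 0.15 in pre-S (adjusted p = 0.010), a call lost without the first 10 h or the first pre-S library (adjusted p = 0.172 and 0.454). Lyrm2 rose by 0.21 (adjusted p = 8.75e-05), Gabrr1 by 0.18 (adjusted p = 0.000153), Pm20d2 by 0.17 (adjusted p = 0.00242), Ube2j1 by 0.17 (adjusted p = 0.000193), Srsf12 by 0.14 (adjusted p = 0.00494) and Gabrr2, another GABA receptor subunit, by 0.14 (adjusted p = 0.00625). Akirin2 rose by 0.12 (adjusted p = 0.0263) and Pnrc1 by 0.10 (adjusted p = 0.0361), and both were lost without either 10 h library or the first imminent division library. Pm20d2 was lost without the second 10 h library (adjusted p = 0.213) or the first imminent division library (0.0506), Srsf12 without the first 10 h library (0.0705), and Gabrr2 without the first 10 h (0.0568) or second imminent division library (0.0622). Without the filter on partner bins, the calls of Lyrm2, Gabrr2, Gabrr1, Pm20d2 and Pnrc1 were lost (adjusted p = 0.189, 0.383, 0.0838, 0.0659 and 0.0745), and with coverage in the offsets that of Ube2j1 (0.0591). Of 13 alternatives in all, 7 lost the call of Pnrc1, 4 that of Akirin2 and 4 that of Gabrr2. In pre-S, of these 9 only Rngtt and Ube2j1 (0.11, adjusted p = 0.0368) passed, and Ube2j1 did not without either 10 h or the first pre-S library. Lyrm2, Gabrr1, Pm20d2 and Cnr1 were higher at imminent division than in pre-S, by 0.20, 0.18, 0.16 and 0.45 (adjusted p = 0.00139, 0.000939, 0.0211 and 0.000882). Of these, Pm20d2 was lost without the first imminent division or second pre-S library and Cnr1 without the first pre-S library. Without the filter on partner bins Gabrr1, Pm20d2 and Cnr1 changed sign. Of 13 alternatives, 1 lost the call of Lyrm2, 1 that of Gabrr1, 4 that of Pm20d2 and 3 that of Cnr1. The bin of Spaca1, a sperm acrosome protein, did not pass the filter on low counts.

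Genes that work with Bach2 or are known as its targets were read from a list of 22, all of which were tested. Each value is that of the whole 50 kb bin, and the bins of Mafk, Maff, Ncor1, Xbp1, Bcl6 and Tcf3 hold 2 gene starts each, that of Spib 3, that of Hdac3 4 and that of Mafg 6, so their values cannot be told apart from those of the genes that share the bin. At 10 h 0 of the 22 passed against 3 h. At imminent division 6 rose and 6 fell, near the 51.1% called among all promoter bins, with a median of -0.035 against -0.0026 over all. In pre-S 2 rose and 4 fell (35% called among all) and between both 33 h groups 4 were higher and 2 lower at imminent division (19.8% among all). The counts of the list did not stand apart from the background. With DESeq2, 0 rose and 3 fell in pre-S, where 1150 and 971 of all 12337 promoter bins did. Between both 33 h groups it called 1 higher and 0 lower, against 238 and 440 of all. With a replicate block 5 rose and 6 fell at imminent division, where 2996 and 3007 of all 12337 promoter bins did. In pre-S 2 rose and 3 fell with the block, against 2096 and 1931 of all. Between both 33 h groups 2 were higher and 2 lower with it, against 960 and 1189 of all. The counts also moved on leaving out a library.

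The sublists by role hold 7 or 8 genes each, and their counts stand beside the 25.5% of all promoter bins that rose and the 25.6% that fell at imminent division. The 7 partners of Bach2 held 1 riser and 1 faller. Mafk, a small Maf protein that pairs with Bach2, had 1394 and 1381 normalised read pairs for 10 h, 1020 and 1065 for imminent division, then 1093 and 1230 for pre-S, after 1404 and 1324 for 3 h. It fell by 0.41 (SE 0.05, adjusted p = 6.85e-10) and 0.26 (SE 0.05, adjusted p = 0.000121). Ncor1, a corepressor, rose by 0.09 at imminent division (adjusted p = 0.0467), a call lost in 8 of 13 alternatives and turned in sign in 1. The losses include those with TMM factors, with DESeq2, without the filter and without any 1 library of 10 h or imminent division. Mafg, Maff, Bach1 and Hdac3 did not pass in any comparison.

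Of the 7 targets that Bach2 represses or opposes, 4 rose and 1 fell at imminent division, against those 25.5% and 25.6%. Prdm1 was at 1332 and 1593 for 3 h, 1584 and 1475 for 10 h, 2132 and 2095 for imminent division, then 1782 and 1765 for pre-S. Its groups did not overlap after 10 h, with a rise of 0.47 at imminent division (SE 0.05, adjusted p = 3.38e-11), of 0.22 in pre-S (SE 0.05, adjusted p = 0.00117) and a difference of 0.25 between both (SE 0.05, adjusted p = 0.000184). Of 13 alternatives, 2 lost the pre-S rise of Prdm1 and 1 its difference between both 33 h groups. Cdkn2a, a cell cycle inhibitor, rose by 0.46 (SE 0.06, adjusted p = 4.64e-08), Id2, an inhibitor of helix-loop-helix factors, by 0.24 (SE 0.04, adjusted p = 6.55e-07) and Xbp1, a factor of the secretory programme, by 0.10 (SE 0.04, adjusted p = 0.0318). Hmox1, the haem-degrading enzyme, fell by 0.14 (SE 0.04, adjusted p = 0.00521). Irf4 was at -0.06 (adjusted p = 0.161) and Cdkn1a at 0.07 (adjusted p = 0.187). The call of Xbp1 was lost without the second 10 h or second imminent division library (adjusted p = 0.338 and 0.293), and that of Hmox1 without the first 10 h library (adjusted p = 0.115).

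Of the 8 other factors of the B cell network, 1 rose and 4 fell at imminent division. Bcl6, the germinal centre repressor, rose by 0.12 (SE 0.04, adjusted p = 0.00345). Spib fell by 0.24 (SE 0.04, adjusted p = 7.23e-07), Tcf3 by 0.16 (SE 0.04, adjusted p = 0.000654), and Ebf1 and Pax5, which maintain B cell identity, by 0.12 each (SE 0.04, adjusted p = 0.0038 and 0.00775). In pre-S Spib and Tcf3 also fell, by 0.20 and 0.19 (adjusted p = 0.000281 and 0.000531), whereas Ebf1 was at 0.01 (adjusted p = 0.873) and Pax5 at -0.03 (adjusted p = 0.650). Ebf1 was lower at imminent division than in pre-S by -0.13 (adjusted p = 0.00951). Foxo1 and Ikzf1 did not pass in any comparison. The rises of Prdm1, Cdkn2a and Id2 and the fall of Mafk at imminent division passed in every alternative run. When coverage entered the offsets, Hmox1 and Ncor1 changed sign (0.0040 and -0.05) and Spib, Tcf3, Bcl6 and Xbp1 were not called (adjusted p = 0.320, 0.186, 0.507 and 0.148). Without the filter on partner bins Pax5, Ebf1 and Xbp1 changed sign (0.05, 0.05 and -0.02). At imminent division the calls of Pax5, Ebf1 and Bcl6 were lost without 1 of the 10 h libraries (adjusted p = 0.104, 0.0727 and 0.0771), and that of Pax5 also without the second imminent division library (adjusted p = 0.0829). The difference of Ebf1 between both 33 h groups was lost without the second imminent division or the first pre-S library (adjusted p = 0.0597 and 0.153). In pre-S the rise of Prdm1 was lost without the second 10 h library (0.17, adjusted p = 0.0608), and the fall of Mafk and of Tcf3 when the first pre-S library was left out (adjusted p = 0.0600 and 0.0562).

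Of the 12337 promoter bins, those whose normalised interactivity over the 8 libraries was most like that of the Bach2 start bin were the bins of Taf4 (Pearson r = 0.985), of Ntn1 and Pik3r5 (0.984), of Zfp74 and Zfp568 (0.979), of Upk1b and 4930435E12Rik (0.973) and of Litaf and Snn (0.968). These correlations are over 8 libraries of 4 groups that share depth and normalisation, and they are given as a description without a test.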

How the data were processed

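In situ HiC libraries of 8 samples were used. Per the study's methods the authors aligned reads to mm10 with diffHic, marked duplicates and removed dangling ends and overlong fragments, and the deposited matrices hold raw counts of read pairs for each pair of 50 kb bins, without positions. Bin positions were rebuilt here from the MboI fragments of the genome, assigned to bins by their midpoints, and gave the 53357 bins of the matrices. Autosomal bins with more than 10% unknown bases or with coverage over 4-fold from the median were left out (756 of 48088). Bin pairs were tested where their mean exceeded the interchromosomal background 4-fold and promoter bins where they passed edgeR's filterByExpr at a minimum count of 200, with edgeR 4.0.16 (quasi-likelihood, loess offsets, R 4.3.3). Scores were tested with limma 3.58.1. Adjusted p-values are Benjamini-Hochberg values over all features of a test, with calls at 0.05, and all 8 libraries entered each fit. With 2 samples a group they measure the spread between these samples only. Read pairs carry no molecular identifiers and are not independent molecules. Alternatives were TMM factors, offsets with coverage, offsets from distance, other filters, window sizes and fold thresholds, DESeq2 1.42.0, a replicate block and leaving out each library. The scripts were tested on simulated data.

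Named items were Bach2, every protein-coding gene that starts in the window, the 22 genes of the list, all DIs of the start bin, the 5 DIs with the smallest p in each direction and comparison, insulation minima under the 10th percentile and the 5 promoter bins most like Bach2. The values of 2 genes of the list are not reported here, although the counts over the list include them. Other pairs, bins and regions given were chosen after their values were seen. Members and lists were chosen with earlier results of these data known. Replicate numbers did not pair the samples, as the correlation of deviations between same-numbered samples was -0.249 to 0.0944 over 12337 promoter bins. The deposited tables hold no annotation, and gene positions came from GENCODE vM21. The internal start and the promoters set beside both starts came from RefSeq (GRCm38.p6), and the sequence before the 5′ start was cut from the genome.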

Additional observations from a re-analysis of the deposited data

How the results depend on the processing

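The limits are those of 2 libraries a group and of counts that are few in far pairs. Interchromosomal coverage of the start bin was lower in both pre-S libraries than in the others, and how it was treated changed many values. The cause of the changes below was not tested, other than that leaving out a library leaves fewer samples. Values are log2 differences or counts. Of 408 comparisons of 32 results with an alternative, 310 kept direction and side of the threshold or stayed within 1.5-fold. The 32 include results that were not called, which count as kept when they stay uncalled. The single pairs, neighbouring genes, list genes and other bins named above are not in this tally.

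The number of DIs in the window was 1 at 10 h, against 3 with coverage in the offsets, 0 with distance offsets, 0 with DESeq2, 0 with the 2-fold filter and 0 to 3 without a library. At imminent division it was 55, against 99 with TMM, 111 with coverage (76 stronger and 35 weaker), 0 with DESeq2, 17 with the 2-fold filter and 6 to 64 without a library. In pre-S it was 13, against 20 with TMM, 0 with DESeq2, 6 with the 2-fold filter and 0 to 14 without a library. Between both 33 h groups it was 8, against 30 with coverage, 2 with distance offsets, 0 with DESeq2, 3 with the 2-fold filter and 0 to 9 without a library. With coverage, pairs changed sign between both 33 h groups at -1464 with -1414 kb (0.0189) and -1664 with -1614 kb (0.00331), and in pre-S at -1864 with -1814 kb (-0.195), -2013 with -1963 kb (-0.0689), -1464 with -1414 kb (-0.0728), -1664 with -1614 kb (-0.203) and -64 with -14 kb (0.0420).

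Interactivity of the start bin at 10 h was -0.000450 with TMM, -0.0258 with coverage, -0.00134 without the filter and -0.0116 to 0.0466 without a library. At imminent division it was -0.0691 with TMM, 0.105 with coverage, 0.0511 without the filter, -0.0840 with DESeq2 and -0.102 to -0.0581 without a library. In pre-S it was -0.158 with TMM (adjusted p = 0.00262), 0.118 with coverage and -0.106 to -0.0769 without a library. Between both 33 h groups it was -0.0130 with coverage and -0.0145 to 0.0280 without a library. With coverage, the gene body was at 0.112 in pre-S and -0.469 between both 33 h groups, the upstream flank at -0.0990 and -0.172, and the downstream flank at -0.108 at imminent division, 0.0773 in pre-S and -0.186 between both, and the values between both 33 h groups passed. Without a library, the body was at -0.337 to -0.277 in pre-S, and the downstream flank at -0.371 to -0.274 at 10 h and -0.193 to -0.145 at imminent division.

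Insulation of the start bin at 10 h was -0.0966 with 250 kb squares, 0.240 with coverage (adjusted p = 0.00199) and -0.00998 to 0.0215 without a library. With coverage it was 0.0744 in pre-S and -0.530 between both 33 h groups, and the bins at 386 and 1136 kb were at 0.19 and 0.26 in pre-S. The sign of these bins turned there, as without a library they were at -0.253 to -0.185 and -0.215 to -0.186. The compartment score of the start was 0.00313 at 10 h with 250 kb bins (-0.0442 to 0.0210 without a library) and -0.0376 at imminent division with 250 kb bins. Between both 33 h groups it was 0.00362 with quantile normalisation, -0.0723 with 250 kb bins (adjusted p = 0.0107), 0.0331 with coverage and -0.0409 to 0.0112 without a library. Boundary regions numbered 5 at 10 h, 9 in pre-S and 11 between both 33 h groups with no fold threshold, and 0 in pre-S with 500 kb on each side. Without a library they numbered 0 to 2 at 10 h, 6 to 8 at imminent division, 0 to 2 in pre-S and 1 to 3 between both.

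Without the filter on partner bins the sign turned between both 33 h groups for Ankrd6 and Rragd (-0.00703), Gabrr1 (-0.0268), Pm20d2 (-0.0369), Cnr1 (-0.0562) and Ebf1 (0.00605), in pre-S for Cnr1 (0.170), and at imminent division for Pax5 (0.0531), Ebf1 (0.0467) and Xbp1 (-0.0219). With coverage it turned for Hmox1 (0.00398 at imminent division and 0.0173 in pre-S) and for Ncor1 at imminent division (-0.0544).

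Replicate numbers did not pair the samples. With a replicate block, interactivity of the start bin at imminent division was -0.0838 (adjusted p = 0.0657), the downstream flank at 10 h was at -0.322 (adjusted p = 0.160) and boundary regions in pre-S numbered 1. Among the other results of the tally the block changed no call and no count by over 1.5-fold. Calls of single pairs did change. At imminent division 0 of the 139 pairs of a gene bin with a downstream bin were stronger with the block, against 1 without it. Weaker pairs of a gene bin there numbered 10 with the upstream and 3 with the downstream flank, against 12 and 4. Of the 15 promoter bins of the window, 10 rose and 0 fell at imminent division and 4 rose and 1 fell in pre-S with the block. At 10 h 0 rose, where the call of Mdn1 was lost (adjusted p = 0.0591). Over all 12337 promoter bins the block called 2996 as higher and 3007 as lower at imminent division. In pre-S it called 2096 and 1931, and at 10 h 55 as higher.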
